A study of Mus musculus with 6 samples.

Results

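Probes for the proteins of the cytosolic ribosome were followed in synovial tissue from the ankles of mice with collagen-induced arthritis, a model of rheumatoid arthritis. The members were chosen by gene symbol: Rpl or Rps followed by a digit, together with Rplp0, Rplp1, Rplp2 and Rpsa, leaving out the S6 kinases (7 probes) and pseudogene symbols (0 probes). This gave 84 probes for 66 genes, of 25697 probes on the array, 23978 of which carry the name of 1 of 16593 genes. They hold 32 genes of the large subunit (43 probes), 23 of the small subunit (28 probes) and 3 of the stalk (4 probes). Another 7 genes (8 probes) were grouped as paralogs by symbol, which does not show that each encodes a ribosomal protein. The symbol rule also took in Rps19bp1, a protein that binds RPS19 and is itself no ribosomal protein.

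All tissue came from male DBA/1 mice, aged 6 to 8 weeks at use, that were immunized with complete Freund's adjuvant holding 100 µg of type II collagen from cattle, and boosted at week 2 in a footpad. By the labels the groups differ in the week after immunization: week 6, week 9 and week 15. Each has 2 arrays of RNA from pooled tissue, and the boosted foot was left out. If all mice were immunized at a like age, age at sampling rose with the week and cannot be told apart from it. Untreated mice were not analysed here, so every comparison is between immunized groups. Whether the 2 RNA samples of a week come from separate pools is not stated in the labels, and p-values therefore cover only the spread seen between these arrays, part of which may be technical. In a whole tissue, fewer cells of a type and less RNA per cell cannot be told apart.

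The cytosolic ribosome has a large and a small subunit, each built from ribosomal RNA and a fixed set of proteins, most of them present in 1 copy, and the acidic stalk proteins recruit translation factors. Messages of ribosomal proteins are among the most abundant in most cells. They typically begin with a C and a run of pyrimidines, the 5′ terminal oligopyrimidine (TOP) tract, through which growth signals control how well they are translated. Such control acts on translation and does not have to show in RNA levels, which are what an array measures.

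The start of the gene shows this shared feature. RefSeq's table of the mouse assembly GRCm38.p6 held a promoter window for 57 of the 66 genes. A C followed by at least 5 C or T, beginning within 10 bases of the annotated start on the sense strand, was found in 31 of these 57 genes (54.4%), against 21.9% of all 27025 genes in the table and 22.3% of its 17492 protein-coding genes. On the opposite strand the same search found it in 10.5% of the members and 25.2% of all genes. Shown are 60 bases, from 40 before to 20 after the start, with the tract in capitals, for genes whose probes are described below. Rps2 and Rpl38 had some of the brightest probes, and Rpl35 had a long tract. Rps9 had 2 probes that moved apart, and Rpl22l1 had the largest difference of any member after background correction. The last 2, Rps13 and Rpl36al, have no such tract beginning within 10 bases of the annotated start and are printed for contrast. In the Rps13 line a C followed by 5 C or T (CTTCCT) begins just beyond that window.
Rps2, chr17:24720023-24720082, + strand: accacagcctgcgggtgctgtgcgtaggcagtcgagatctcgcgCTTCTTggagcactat
Rpl38, chr11:114668540-114668599, + strand: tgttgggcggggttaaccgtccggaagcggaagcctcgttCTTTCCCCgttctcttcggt
Rpl35, chr2:39005112-39005171, - strand: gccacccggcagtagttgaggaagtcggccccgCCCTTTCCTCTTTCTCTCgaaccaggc
Rps9, chr7:3704001-3704060, + strand: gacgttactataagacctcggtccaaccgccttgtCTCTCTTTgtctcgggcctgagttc
Rpl22l1, chr3:28805468-28805527, + strand: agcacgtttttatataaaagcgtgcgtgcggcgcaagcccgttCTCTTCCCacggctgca
Rps13, chr7:116334171-116334230, - strand: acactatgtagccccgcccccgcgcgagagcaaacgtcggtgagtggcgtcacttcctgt
Rpl36al, chr12:69184048-69184107, - strand: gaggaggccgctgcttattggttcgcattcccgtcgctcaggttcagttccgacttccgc

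Other motifs were counted over the whole window, from 250 bases before the start to 50 after it, on both strands. The letters CCGGAAG, of the kind that ETS family factors recognise, were in 38.6% of member promoters and 9.93% of all promoters. AAGATGGC was in 10.5% of member promoters and 3.19% of all, TATAAA in 10.5% and 15.7%, and CACGTG in 10.5% and 8.09%. A match is a description of the letters and not a site in use. In Rpl38 the CCGGAAG letters lie within the stretch printed above, ahead of its tract.

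The arrays differed in brightness. The median intensity was between 99.07 (week 15, second array) and 129.5 (week 6, first array), and 47.88% to 50.73% of probes were above background per array. The fibroblast markers of the tissue were bright on every array, with a summed normalized signal (linear scale, all probes) from 11819 to 18108 over 9 genes. Their sum was lower on both week 9 arrays than on any other. The sum of 7 T and NK cell markers was 17354 and 17580 at week 6, 26577 and 22037 at week 9, and 22467 and 21072 at week 15. Weeks 9 and 15 overlapped. Adipocyte markers (6 genes) summed to 697.8 and 848.3 at week 6, 211.3 and 209.5 at week 9 and 328.4 and 200.7 at week 15. Macrophage markers (4 genes) summed to 3037 and 2625, then 1809 and 1616, then 1978 and 1358, and erythroid markers (4 genes) to 14886 and 17090, then 6795 and 8475, then 16718 and 8504. Skeletal muscle markers (5 of 10 genes tested) summed to 14452 on the first week 15 array and to between 366.4 and 472 on the other 5. The part of these differences in the ribosomal protein values was not tested.

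Most ribosomal protein probes were among the brightest on the array. Of the 84, 66 were above background on all 6 arrays, 57 had a mean intensity over 1000 and 38 over 10000. The tested members lay at a median of the 99.6th percentile of mean signal, and 43 were at or above the 99th. Between 20 and 23 of the 50 brightest probes on each array were members. Probes differ in how strongly they hybridise, so these ranks are not RNA amounts.

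**Figure D1:**
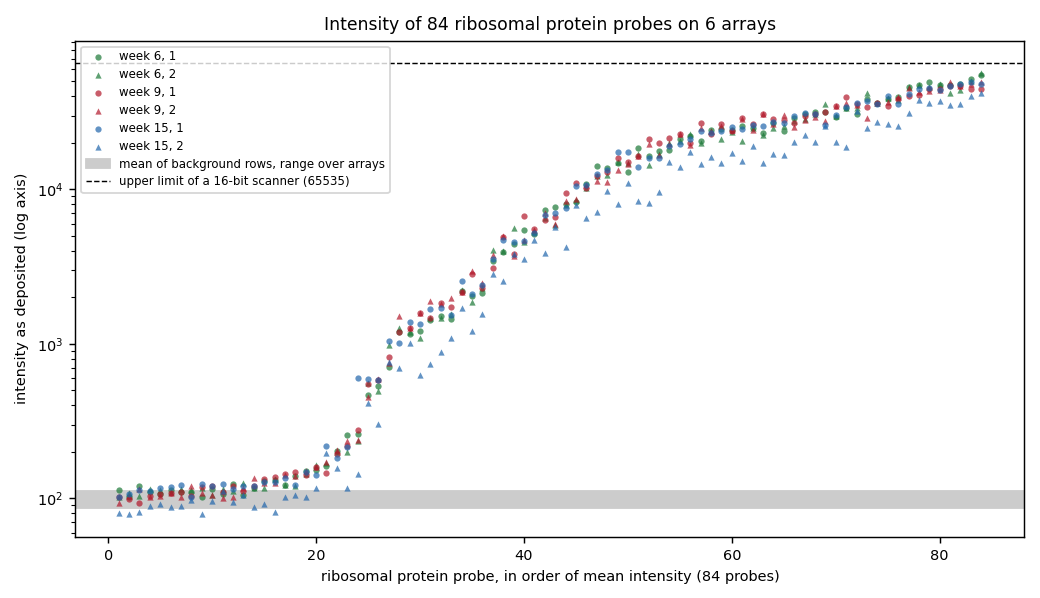
Intensity as deposited (log axis) of each of the 84 ribosomal protein probes, in order of mean intensity, on the 6 arrays; colour marks the week, circles the first and triangles the second array. The grey band spans the mean of the background rows, 86.88 to 111.2, and the dashed line marks the 16-bit limit of 65535, which no probe reached; the second week 15 array lies below the others over most of the range.

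Array signals can be compressed near the top of the scale. Within 0.5 log2 units of the brightest probe of an array were 15 members on at least 1 array and 8 on all 6. The 8 were the stalk protein Rplp1, the large subunit proteins Rpl9, Rpl38 and Rpl41, and the small subunit proteins Rps2, Rps4x, Rps19 (its brighter probe) and Rps20. The file carries no saturation mark, no intensity was at 65535, and the highest ranged from 42143 to 56634 over the arrays. By array, members within 0.5 of the top numbered 9 and 9 at week 6, 14 and 12 at week 9, and 10 and 9 at week 15.

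Brightness also bore on how the 2 week 15 arrays compared. After background correction and before scaling, the second week 15 array was at a median of 0.760 of the first for the 14 members over 30000, and at 0.555 for the 13 tested members under 1000. For other probes the medians were 0.751 and 0.696 in the same ranges. At week 6 the members' medians were 1.00 and 0.985. After quantile normalization, which gives all arrays 1 distribution, the median week 15 difference of the members was -0.02 on the log2 scale.

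**Figure D2:**
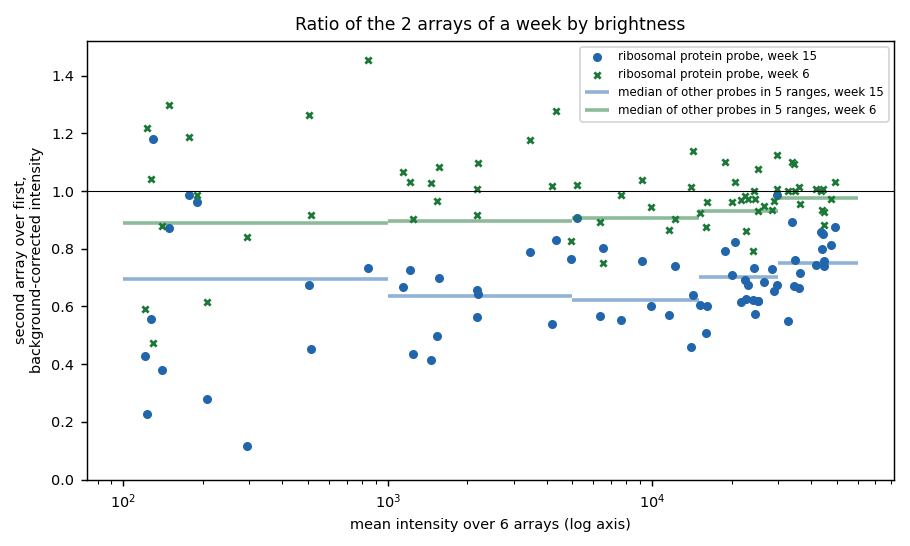
Ratio of the second to the first array after background correction for the 70 tested ribosomal protein probes, against mean intensity (log axis), at week 15 (circles) and week 6 (crosses); lines give the median of all other tested probes in 5 intensity ranges. At week 15 the members' median ratio was 0.760 above 30000 and between 0.555 and 0.663 in the ranges below it.

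At the bottom of the scale, 11 member probes were above background on no array and 3 on 1 array. These 14 were not tested, and for 7 genes no other probe was available. The 7 were Rpl14, Rpl17, Rplp2 (a stalk protein), Rps23, Rpsa, Rpl39l and Rps23rg1. Rpsa is a small subunit protein also known as the laminin receptor precursor, and Rpl39l and Rps23rg1 are of the paralog group. A probe at background was not read as a missing message, since probes of 1 gene differed widely in signal. Of 15 genes with more than 1 probe, Rpl37 had means of 15.09 and 4.46 on the log2 scale for its brightest and dimmest probe, and Rpl23, with 4 probes, had 15.05 and 4.87. Ribosomal protein genes have many processed pseudogenes, and whether probes also bind their transcripts was not tested. The filter, detection on at least 2 of 6 arrays, left 70 probes for 59 genes, of 13633 probes tested: 36 of the large subunit, 25 of the small subunit, 2 of the stalk, 6 of paralogs and Rps19bp1.

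Taken over all signal levels, the tested members varied less between replicate arrays than other probes, most of which were dimmer. The SD of the log2 difference between the 2 arrays was 0.196 at week 6, 0.187 at week 9 and 0.410 at week 15 for members. For all other tested probes it was 0.307, 0.306 and 0.507. In both sets the week 15 pair was the most spread. At like intensity the order was mixed. The median absolute difference at week 6 was 0.277 for members and 0.194 for other probes under 1000, 0.208 and 0.102 from 1000 to 5000, and 0.114 and 0.0756 from 5000 to 15000. From 15000 to 30000 it was 0.0653 and 0.0722. At week 9 members were lower from 1000 to 5000 (0.0657 and 0.110), from 15000 to 30000 (0.0818 and 0.111) and over 30000 (0.0418 and 0.0547). They were higher there under 1000 and from 5000 to 15000.

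No ribosomal protein probe was called changed over the 3 weeks: none passed an adjusted p of 0.05 (limma, Benjamini-Hochberg over all 13633 probes) in any of the 3 comparisons or in the F test over all weeks. From week 6 to week 9 the count was 0 of 70, where 0.521% of all tested probes passed. From week 9 to week 15 it was 0 of 70, with 2.4% of all probes. Between week 6 and week 15 it was 0 of 70, with 0.0367% of all, and in the F test 0 of 70, with 1.11% of all. At these low shares, counts of 0 among 70 probes say little on their own.

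At an unadjusted p under 0.05 the background was larger. Members past it numbered 3 of 70 from week 6 to week 9 (4.29%, against 16.5% of all probes) and 8 of 70 from week 9 to week 15 (11.4%, against 24.3%). Between week 6 and week 15 there were 3 (4.29%, against 14%), and in limma's F test 5 of 70, against 22.7% of all. Among the 55 tested members near the top of no array, the counts in the 3 comparisons were 3, 8 and 3, or 5.45%, 14.5% and 5.45%. The comparisons share arrays and are not independent of each other.

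The median log2 change of the tested members was -0.03 from week 6 to week 9 (31 positive and 39 negative), 0.03 from week 9 to week 15 (39 and 31) and 0.00 from week 6 to week 15 (35 and 35). Over all tested probes the medians were 0.04, -0.06 and -0.00. With scaling to each array's 75th percentile in place of quantile normalization, the member medians were 0.00, 0.12 and 0.13. With scaling to the median of other probes they were 0.02, 0.09 and 0.12. The sign of the week 6 to week 9 median therefore depends on the scaling. The size of the medians in the comparisons with week 15 depends on it too, and both were higher with either scaling than with quantile normalization. Between replicate arrays the member median had an SD of 0.021 on the log2 scale. With quantile normalization and without regard to sign, the median change of members was 0.137, 0.148 and 0.0961, and that of other probes 0.236, 0.300 and 0.222. Changes over 0.5 were seen in 3, 10 and 3 members, or 4.29%, 14.3% and 4.29%, against 17.1%, 25.4% and 16.1% of all tested probes. Of 13563 other probes 11109 had a mean intensity under 1000, against 13 of 70 members. Changes of the 2 sets at like intensity were not compared.

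The precision can be read from the intervals of limma's fit. The 95% interval of the change reached a median of 0.412 log2 units to either side of the estimate over the members. It lay wholly within 1 log2 unit of no change for 66 of 70 members from week 6 to week 9, for 61 from week 9 to week 15 and for 65 from week 6 to week 15. It lay within 0.5 for 21, 16 and 26 of them, so smaller shifts remained within the error for most members.

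**Figure D3:**
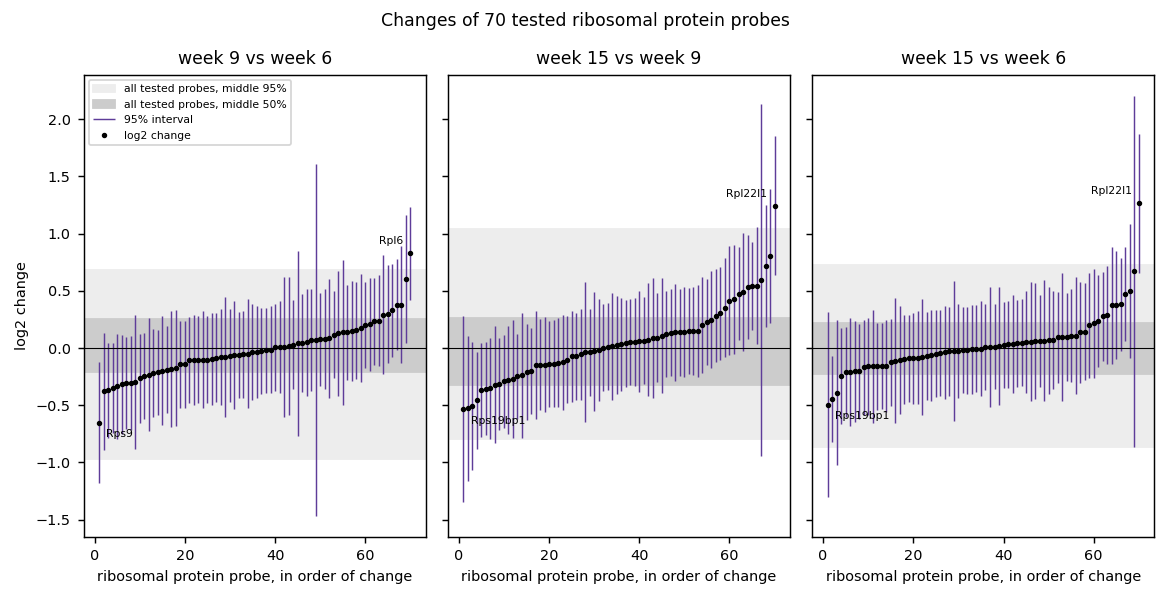
Log2 change of the 70 tested ribosomal protein probes in each comparison, in order of change, with 95% intervals from limma; grey bands give the middle 50% and 95% of all 13633 tested probes. Most intervals include 0, and Rpl22l1 stands highest in both comparisons with week 15, at 1.24 and 1.26.

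The subunits had similar medians. For the 36 large subunit probes the median log2 change was -0.05 from week 6 to week 9, 0.04 from week 9 to week 15 and 0.01 from week 6 to week 15. For the 25 small subunit probes the medians were -0.04, -0.04 and -0.01.

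The stalk carried 1 of the brightest probes. The log2 signal of Rplp1, a stalk protein that contacts elongation factors, was 15.59 and 15.63 at week 6, 15.47 and 15.59 at week 9, and 15.54 and 15.63 at week 15. The weeks overlapped. Rplp0, the stalk's base and a common reference gene in quantitative PCR, was at 8.64 and 8.67, then 8.71 and 8.77, then 9.01 and 8.42 on its detected probe. Its 2 week 15 arrays enclosed all the others, and the largest of its 3 changes was 0.08 (adjusted p = 0.884, limma).

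Among the large subunit proteins with probes well above background, Rpl4, Rpl36a, Rpl27a and Rpl34 had some of the wider differences. Rpl4, which reaches with a long loop into the exit tunnel for the new chain, had log2 signals of 10.96 and 11.12 at week 6, 10.76 and 10.79 at week 9, and 11.31 and 11.33 at week 15. The weeks did not overlap, and week 9 was the lowest. The change from week 9 to week 15 was 0.54 (SE 0.17, adjusted p = 0.114, limma), and it was past the threshold with no background correction (0.51, adjusted p = 0.0364). With scaling to the 75th percentile it was 0.38 (adjusted p = 0.203), and with a week 6 or week 9 array left out the adjusted p was 0.202 to 0.404.

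Rpl36a, near the exit site for transfer RNA, was at 12.84 and 12.55 at week 6, 12.45 and 12.28 at week 9, and 12.76 and 13.04 at week 15. It too was lowest at week 9, with a change to week 15 of 0.53 (adjusted p = 0.161, limma). Its close paralog Rpl36al was at 14.26 and 14.31, then 14.57 and 14.49, then 14.49 and 14.28. There week 9 was above week 6, by 0.24 (adjusted p = 0.519, limma), and overlapped week 15.

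Rpl27a was at 9.96 and 10.16 at week 6, 9.96 and 9.98 at week 9, and 10.37 and 10.51 at week 15. Week 15 was above the others without overlap, by 0.48 from week 9 (adjusted p = 0.157, limma). Rpl34 was at 14.10 and 14.09 at week 6, 13.86 and 13.84 at week 9, and 13.66 and 13.64 at week 15. It was lower at each later week with no overlap, and the change from week 6 to week 15 was -0.44 (adjusted p = 0.301, limma).

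Rpl6, which sits at the surface of the large subunit, had a probe close to background. Its log2 signal was 4.81 and 4.87 at week 6, where it was not above background on either array, 5.70 and 5.63 at week 9, and 5.43 and 5.18 at week 15. Week 9 was higher than week 6 by 1.55-fold and week 15 by 1.21-fold, setting the week 6 arrays to the lowest signal among detected probes. These values hold only after background correction and take the week 9 and week 15 signals as exact. The fitted adjusted p was 0.106 for the first and 0.308 for the second (limma). In the first comparison it was 0.0480 when only the 4 arrays compared were fitted. The change in that comparison was 0.83 with either week 15 array left out and 0.79 to 0.86 with a week 6 or week 9 array left out. The probe passed the filter only through weeks 9 and 15, where it was higher, so its comparisons with week 6 do not count as support. At such dim signals the size of a change depends on the background correction: without it, the fitted change from week 6 to week 9 was 0.25 (adjusted p = 0.241) instead of 0.83.

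In the small subunit, Rps3a1, Rps15 and Rps13, with 1 probe each, had some of the wider differences. Rps3a1, which lies at the messenger exit side, was at 9.15 and 9.86 at week 6, 9.26 and 9.15 at week 9, and 9.93 and 10.08 at week 15. Week 6 spanned most of the range, and week 15 was above both other weeks. The change from week 9 to week 15 was 0.80 (SE 0.25, adjusted p = 0.119, limma).

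Rps15, near the decoding site, ran the other way, at 13.94 and 13.81, then 14.22 and 14.13, then 13.86 and 13.57. It was highest at week 9 without overlap, and its change to week 15 was -0.46 (adjusted p = 0.184, limma). Rps13 had the same order, at 14.46 and 14.49, then 14.81 and 14.79, then 14.57 and 14.30, with changes of 0.33 and -0.37 (adjusted p = 0.391 and 0.240, limma).

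Rps9, a small subunit protein at the site where the message enters, was read by 2 probes whose changes went opposite ways. The brighter probe was at 14.64 and 14.41 at week 6, 14.73 and 14.72 at week 9, and 14.50 and 14.37 at week 15. The dimmer was at 12.01 and 12.49, then 11.63 and 11.57, then 12.12 and 12.51. Week 9 was the highest on the first and the lowest on the second, in both cases without overlap.

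From week 6 to week 9 the Rps9 changes were 0.21 and -0.65, and from week 9 to week 15 they were -0.29 and 0.72 (adjusted p between 0.120 and 0.586, limma). Among genes with over 1 tested probe, Rps9 was the only one whose probes differed by more than 1 log2 unit in a change, by 1.01 from week 9 to week 15. Without the first week 15 array the dimmer probe's change from week 9 to week 15 was 0.91, and without the second it was 0.53. From week 6 to week 9, the brighter probe's change was 0.32 without the first week 6 array and 0.09 without the second, and the dimmer's was -0.89 and -0.41. The transcript parts that these probes bind are not used here, so no direction is given for the gene.

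Some paralogs are copies that can take the place of a ribosomal protein in some cells. Rpl22l1, which in mice rises when its paralog Rpl22 is lost, had the largest difference of all members in the fit of all 6 arrays with background correction. Its log2 signals were 5.84 and 6.16 at week 6, 5.75 and 6.27 at week 9, and 7.02 and 7.50 at week 15. Both week 15 arrays were above all others. The change was 1.24 from week 9 to week 15 (SE 0.26, adjusted p = 0.0572, limma) and 1.26 from week 6 (adjusted p = 0.158, limma), against 0.02 from week 6 to week 9. The probe was dim, with intensities from 146.1 to 219.9, where the mean of the background rows was 86.88 to 111.2. Without background correction its change from week 9 to week 15 was 0.60, and that of the dimmer Rps9 probe was 0.70.

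The Rpl22l1 result lay close to the threshold. In the comparison of week 15 with week 9 it was past 0.05 in 7 of 17 other settings, with a change from 0.47 to 1.51 and an adjusted p from 0.0269 to 0.327 (limma). Without the first week 15 array, a setting counted among the 7, the change was 1.49, and without the second it was 1.00. Either of these fits leaves week 15 without a replicate. Rpl22, the main form, was at 10.83 and 10.86 at week 6, 11.19 and 11.26 at week 9, and 11.02 and 10.79 at week 15. It was highest at week 9 without overlap, with changes of 0.38 and -0.32 (adjusted p = 0.327 and 0.292, limma).

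Rpl3l, the striated muscle form of Rpl3, was at 7.21 and 7.13 at week 6, 7.40 and 7.08 at week 9, and 9.05 and 6.63 at week 15. The first week 15 array was the highest and the second the lowest of all 6. The first is also the array with the skeletal muscle signal given above, and Acta1, skeletal muscle actin, was above background on that array alone, at 11.46. The change of Rpl3l from week 9 to week 15 was 0.60 (adjusted p = 0.594, limma). It was -0.61 without the first week 15 array and 1.80 without the second.

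Of the other paralogs, Rps27l, a p53 target, was at 12.78 and 12.74, then 12.36 and 12.55, then 12.67 and 12.53. The week 9 arrays reached into the week 15 range, and no adjusted p was under 0.411 (limma). Rpl7l1, a biogenesis factor related to Rpl7, had changes from -0.21 to -0.06 on its brighter probe. On its dimmer probe they were 0.14, -0.53 and -0.39, so the 2 differ in sign from week 6 to week 9 (no adjusted p under 0.269, limma). Rps19bp1 was at 7.17 and 6.70, then 6.90 and 7.05, then 6.97 and 5.90, and only the second week 15 array stood low.

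**Figure D4:**
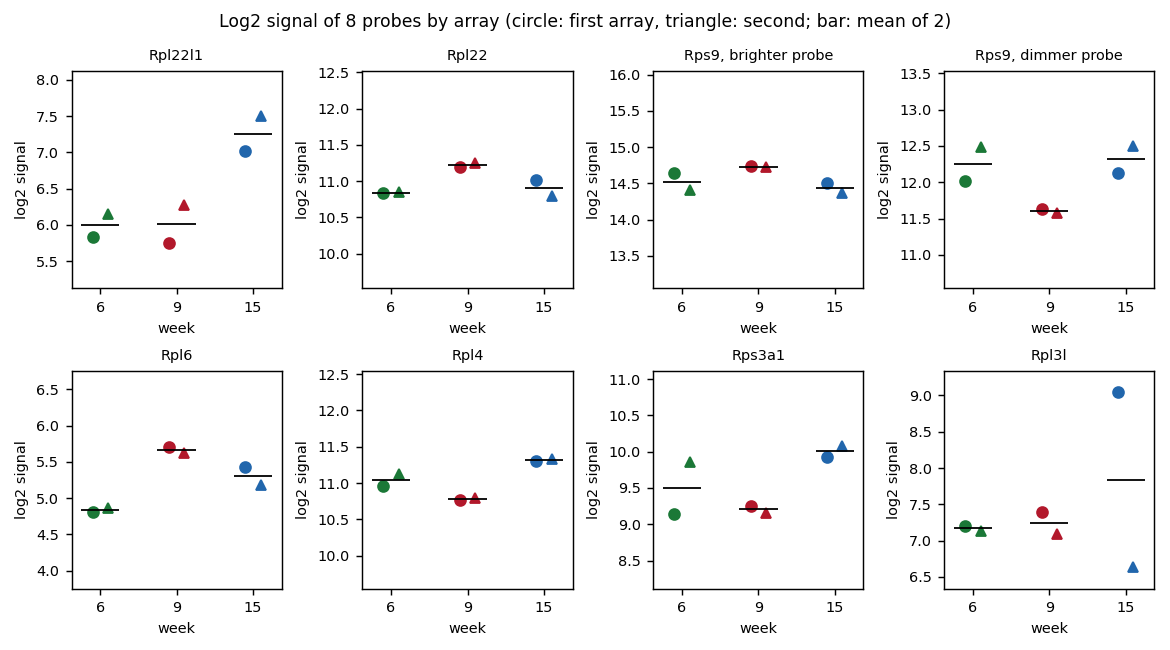
Log2 signal by week for 8 ribosomal protein probes; circles are the first array of a week, triangles the second, bars the mean of 2, and every panel spans 3 log2 units. Rpl22l1 is higher on both week 15 arrays (7.02 and 7.50) than on the other 4, the 2 Rps9 probes move opposite ways at week 9, and Rpl3l is high on 1 week 15 array (9.05).

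Week 9 was taken as a middle point to describe the order of the weeks. In 9 of 70 members both week 9 arrays lay above all 4 others (12.9%, against 19.2% of all tested probes): Rpl22, Rpl6, Rps13, Rps15, Rps2, Rps26, Rps6, the brighter Rps9 probe and the dimmer Rps19 probe. In 15 both lay below (21.4%, against 14.5% of all): Rpl12, 1 probe each of Rpl23 and Rps3, Rpl24, Rpl3, Rpl36a, Rpl4, Rpl41, Rpl5, Rpl7a, Rps10, Rps14, Rps27, Rps7 and the dimmer Rps9 probe. No test of these shares was made, and the members are not independent of each other. The Rpl6 probe passed the filter only through weeks 9 and 15.

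**Figure D5:**
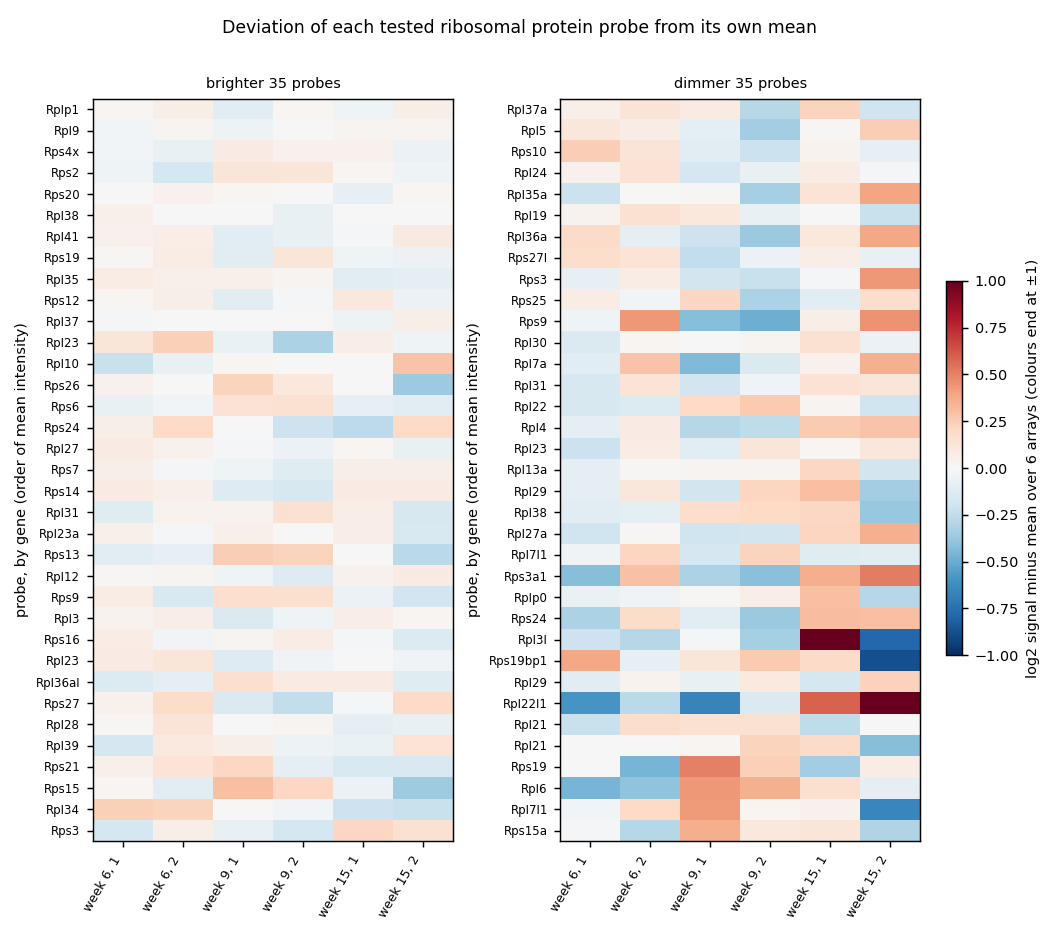
Log2 signal of each tested ribosomal protein probe minus its own mean over the 6 arrays, probes in order of mean intensity, with the brighter 35 on the left; red is above the mean and blue below. Deviations are mostly pale among the brighter probes, and the strongest single cell is Rpl3l on the first week 15 array.

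The members' share of all background-corrected signal was 10.4% and 11.2% at week 6, 9.71% and 9.65% at week 9, and 10.9% and 11.6% at week 15. Both week 9 arrays were the lowest. The 15 members near the top of at least 1 array held 5.43% and 5.88% at week 6, 4.79% and 4.92% at week 9, and 5.56% and 6.32% at week 15. The other members held 5.00% and 5.31%, then 4.92% and 4.74%, then 5.34% and 5.33%. Whether compression of bright signals has a part in this was not tested. With 2 arrays against 2, the smallest two-sided p that an exact permutation test can give is 0.333, so that test cannot reach 0.05, and no other test of the shares was made. The total corrected signal was highest on both week 9 arrays.

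Other genes of the translation machinery were read from lists. Fau, which encodes a small subunit protein fused to a ubiquitin-like one, was at 15.02 and 15.03, then 15.36 and 15.24, then 15.19 and 14.59, with no adjusted p under 0.301 (limma). The list of other TOP messages and elongation factors had 26 tested probes for 15 genes. From week 9 to week 15, 5 of them were called higher and 0 lower (limma), where 2.4% of all tested probes were called. The median change of the list was 0.26, with 18 probes positive and 8 negative.

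The 5 were 2 probes each of Eef2, the factor that moves the ribosome along the message, and Pabpc1, which binds the poly(A) tail, and 1 of Eif4b, an initiation factor. Of 3 Eef2 probes, the second brightest was at 11.66 and 11.66 at week 6, 10.68 and 10.78 at week 9, and 11.80 and 12.10 at week 15. Both week 9 arrays were below all others. Its change from week 9 to week 15 was 1.23 (adjusted p = 0.0273, limma), and from week 6 to week 9 it was -0.93 (adjusted p = 0.0900, limma).

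The changes of the 5 called probes from week 9 to week 15 ran from 1.18 to 1.58, the last being that of Eif4b (adjusted p = 0.0343, limma). In fits added after seeing the data, 0 of the 26 probes were called with any 1 of the week 6 or week 9 arrays left out, where 0 to 3 of all 13633 tested probes were. The changes of the 5 probes were then 1.18 to 1.58 without a week 6 array and 1.09 to 1.76 without a week 9 array. Without the second week 15 array 1 of the 26 was called, and without the first 8 were, 7 of them higher, where 18.8% of all tested probes were called. From week 6 to week 9 the list had 0 calls (limma) and a median of 0.03. In that comparison 7 of its 26 probes had an unadjusted p under 0.05, 6 lower and 1 higher, against 16.5% of all tested probes. Whether these genes differ from the ribosomal proteins was not tested.

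Ribosome biogenesis factors (20 tested probes) and mitochondrial ribosomal proteins (93) had 0 calls in each of the 3 comparisons by limma. From week 9 to week 15, 6 and 13 of them had an unadjusted p under 0.05, with medians of -0.05 and -0.12, against 24.3% and a median of -0.06 for all probes. The 4 tested probes of the S6 kinases, which phosphorylate ribosomal protein S6, had 0 calls as well, and 1 of them had an unadjusted p under 0.05 in that comparison.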

How the data were processed

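Per the file headers, the authors deposited 1 linear intensity per probe and array. How these were normalized is not stated, and no detection p-value accompanies them. The authors' processed values, log2 with medians between 6.732 and 6.734, served as an alternative. The intensity table has 2 columns of values that match no sample here and were not used. Rows without a probe ID were taken as controls: 13 bright ones were left out and 1111 served as background. The neqc function of limma 3.58.1 (R 4.3.3) corrected the background, added an offset of 16, applied quantile normalization and took log2. Probes with a detection p under 0.05 on at least 2 arrays were tested in 1 fit over 6 arrays with group means (lmFit, eBayes; 3 residual and 4.34 prior degrees of freedom), two-sided, with Benjamini-Hochberg adjustment. On simulated data with independent noise, the fit had to recover the mean size of added changes. This does not measure its power in the arrays at hand.

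Members and lists were chosen with earlier results of these data known. Named were members past the threshold, the 5 highest and 5 lowest changes per comparison, stalk proteins, paralogs, the brightest, undetected and discordant members, and the smallest p-values of each list. Symbols come from the platform annotation. No slide or scan date was used, and the number of arrays limits the precision.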

Additional observations from a re-analysis of the deposited data

How the results depend on the processing

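Counts of members past the threshold were 0 in 14 of 17 other settings from week 6 to week 9, in 8 of 17 from week 9 to week 15, in 16 of 17 from week 6 to week 15 and in 13 of 16 for the F test. From week 9 to week 15 it was 2 of 70 with no background correction (Rpl22l1 and Rpl4), where 5.28% of all tested probes were called. It was 1 with scaling to the 75th percentile (3.69% of all), scaling to the median of other probes (3.40%), detection on all 6 arrays (3.76%) or an offset of 50 (4.89%), each time Rpl22l1, and 1 with the authors' values (4.29%), Rpl4. From week 6 to week 9 it was 1 with only the 4 arrays compared (Rpl6, with 2.01% of all). That probe passed the filter only through weeks 9 and 15. In the F test the count was 1 with an offset of 50 (3.00%). Leaving out each array in turn gave 0 to 1 from week 6 to week 9, 0 to 4 from week 9 to week 15, 0 to 1 from week 6 to week 15 and 0 to 2 in the F test. The highest counts came without the first week 15 array. The 4 (Rpl22l1, Rps19bp1, Rps3 and Rps9) are 5.71% of members, against 18.8% of all probes, and the last 2 ranges stand against 7.53% and 15.0% of all probes in that setting. The cause was not tested.

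The labels do not say whether replicate numbers pair the arrays, and the main fit did not pair them. Deviations from the week means correlated at -0.04, 0.15 and -0.08 between weeks, which cannot decide whether arrays were paired. With the replicate block 1 member was called from week 9 to week 15 (Rpl22l1), and the calls over all probes in the 3 comparisons were 7, 192 and 4 instead of 71, 327 and 5.

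Member medians from week 6 to week 9, week 9 to 15 and week 6 to 15 were 0.000196, 0.123 and 0.133 with the 75th percentile and 0.0164, 0.0935 and 0.119 with the median of other probes. Leaving out arrays, they ran from -0.0738 to 0.00804, from 0.00968 to 0.0386 and from -0.0286 to 0.00988. Of 1929 values of named members under other settings, 92 changed sign and none of these was past the threshold. Counted by member and comparison, 48 of 117 changed sign under at least 1 setting. Bright probes near the top of the scale and dim probes near background limit what could be seen.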
